A study of Homo sapiens with 18 samples.

Results

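Galectins and annexins were followed through 10 genes, the galectin genes LGALS1, LGALS2, LGALS3 and LGALS4 and the annexin genes ANXA1, ANXA2, ANXA3, ANXA4, ANXA10 and ANXA13, out of 18132 genes measured. They were taken by symbol, using the 29 probe sets tied only to these genes among 49395 on the array, 4 for galectins and 25 for annexins. The choice rested on measured values, since LGALS2 and ANXA13 differ between the vehicle and control shRNA arrays. Differences between these controls are therefore given as a description without a test, and so are the differences of LGALS2 and ANXA13 after IKKα knockdown.

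RNA was measured on 18 Affymetrix arrays from WiDr and HT29, established human colorectal cancer lines that both carry an activating BRAF mutation. WiDr is held to derive from HT29. The labels gave 6 groups of 3 arrays: WiDr given vehicle, WiDr given AZ628 (a RAF kinase inhibitor), WiDr transduced with a control shRNA, WiDr transduced with an shRNA against IKKα (a kinase encoded by CHUK), HT29 with vehicle and HT29 with AZ628. The dose and duration of AZ628, the nature of the vehicle, the shRNA sequences and whether transduced cells were a pool or a clone were not given in the sources used here, and shRNA arrays were not described as vehicle-treated. The labels do not state that replicates were separate cultures; a p-value then measures only how far these arrays scatter, and that scatter may be technical.

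Galectins are lectins that bind β-galactosides on glycoproteins and glycolipids, and they act both inside the cell and, after unconventional secretion, at its surface. Annexins bind acidic phospholipids in a calcium-dependent way and take part in membrane repair, vesicle traffic and membrane-cytoskeleton contact. In the intestine, galectin-4 is an epithelial lectin of apical transport and annexin A13 is an annexin found largely in gut and kidney epithelium.

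The labels were checked with the targeted gene and a pathway output gene. CHUK was at 7.23 to 7.68 on the log2 scale on the 3 IKKα shRNA arrays, where the lowest of the other 15 arrays was at 8.90. The description of those 3 arrays also contains the word control, and they were grouped by their titles. DUSP6, an ERK phosphatase transcribed in response to ERK activity, lay at 6.34 to 7.19 on the 6 AZ628 arrays and at 10.48 to 11.27 on the other 12. Arrays of the same group correlated at 0.9971 to 0.9985 and arrays of different groups at 0.9555 to 0.9963 (Pearson r over the 18132 genes). The mean of 10 colon epithelial markers lay between 10.44 and 10.73 on every array and none of the 10 was among the dimmest 25% of genes. All values are log2 signals as deposited, differences are on that scale with their standard errors (SE), and a gene passed at a limma adjusted p under 0.05. By that rule 5 of the 10 epithelial markers were higher and 3 lower with AZ628 in each line, so their steady mean hides opposite changes. Of all genes 44.6% passed with AZ628 in WiDr and 43.6% in HT29. Arrays read RNA of whole cultures, so fewer cells expressing a gene and less RNA per cell cannot be told apart.

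LGALS1, LGALS2 and LGALS3 rose with AZ628 in both lines, whereas LGALS4 fell slightly in WiDr and did not pass in HT29. After IKKα knockdown LGALS1 rose and LGALS4 fell against both WiDr controls. LGALS1 encodes galectin-1, a small galectin that works as a dimer and is abundant in mesenchymal cells. Its signal was 8.26, 8.35 and 8.25 with vehicle in WiDr and 9.61, 9.59 and 9.61 with AZ628. For the transduced cells it was 8.10, 8.26 and 8.18 (control shRNA) and 9.67, 9.61 and 9.54 (IKKα shRNA). The AZ628 and IKKα shRNA arrays thus lay together, more than 1 log2 unit above both controls, and the controls overlapped. In HT29 the signal was 7.96, 7.78 and 7.91 with vehicle and 8.86, 8.81 and 8.74 with AZ628.

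LGALS1 rose 2.49-fold with AZ628 in WiDr (1.32, SE 0.062, limma adjusted p = 7.17e-12) and 1.89-fold in HT29 (0.92, SE 0.062, adjusted p = 1.01e-09). With IKKα shRNA it was 2.69-fold above control shRNA (1.43, adjusted p = 7.71e-12) and 2.5-fold above vehicle (1.32, adjusted p = 2.85e-11). Because LGALS1 is a mesenchymal gene, 6 fibroblast markers were read beside it. Their mean per array was 4.11 to 4.34 with vehicle in WiDr and 4.35 to 4.47 with AZ628. Transduced WiDr gave 4.11 to 4.17 (control shRNA) and 4.69 to 4.80 (IKKα shRNA). It was 4.34 to 4.55 with vehicle in HT29 and 4.65 to 4.71 with AZ628. LUM, a proteoglycan of the extracellular matrix, accounted for the largest differences in that list (2.84 with IKKα shRNA against control shRNA, limma adjusted p = 4.32e-12). The markers COL1A2, COL3A1, DCN and LUM were among the dimmest 25% of genes by their mean over the 18 arrays. With IKKα shRNA 2 of the 6 were higher and 4 did not pass against either control. Of all genes 34.9% passed against control shRNA and 36.3% against vehicle. The list median was 0.17 against control shRNA and -0.09 against vehicle. With AZ628 1 rose, 1 fell and 4 did not pass in WiDr (44.6% of all genes passed). In HT29 1 rose and 5 did not pass (43.6%). The list medians with AZ628 were -0.0094 and -0.047. The part of these markers in the LGALS1 differences was not tested.

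**Figure D1:**
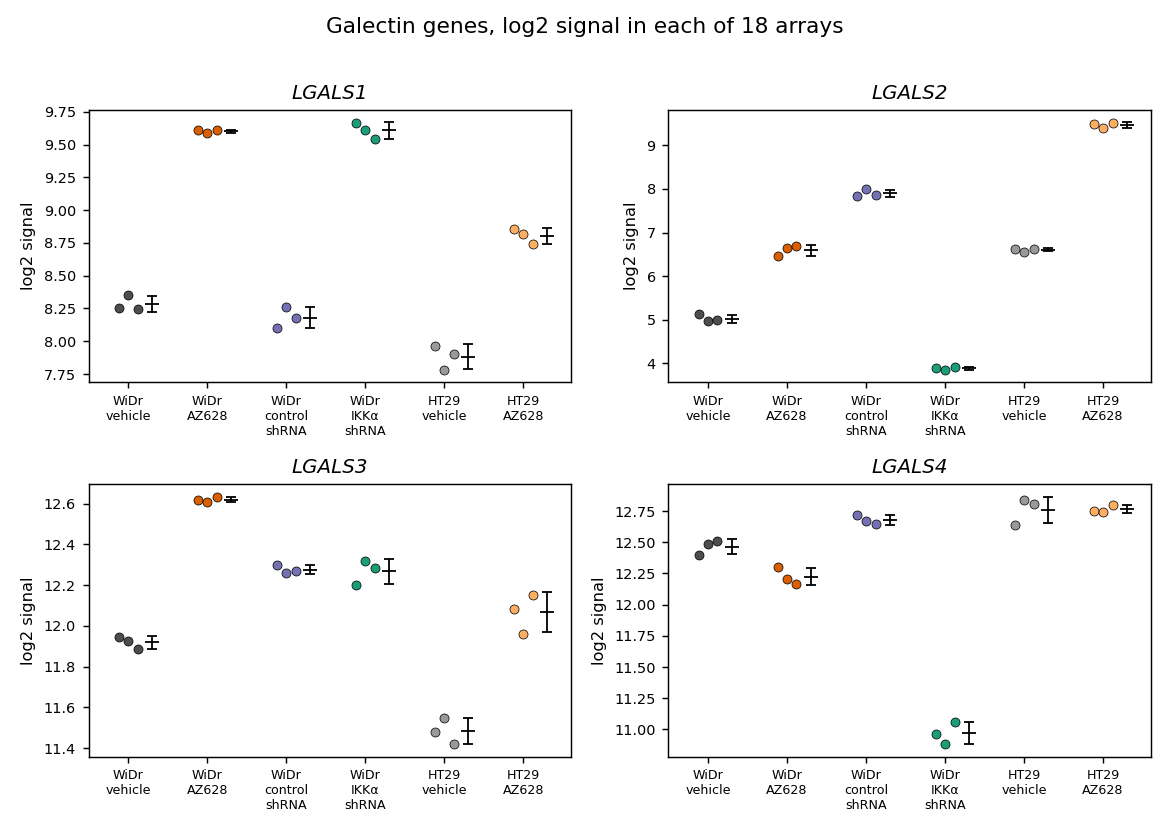
Log2 signal of LGALS1, LGALS2, LGALS3 and LGALS4 on each of 18 arrays by group, with points for arrays in replicate order and bars for the mean ± SD (n = 3); the axes differ between panels and do not start at 0. LGALS1 is higher with AZ628 and with IKKα shRNA than with either WiDr control, LGALS2 runs from 3.84 to 9.51, and LGALS4 is lowest with IKKα shRNA, between 10.88 and 11.06.

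LGALS2 encodes galectin-2, a dimeric galectin made mainly by gastrointestinal epithelium, and its 6 group means covered a wider range than those of any other member. Because its levels are what the choice of genes turned on, its promoter is shown, from 250 bases before to 50 bases after the transcription start (RefSeq, GRCh38.p14, chr22:37580038-37580337, minus strand, written 5′ to 3′ along the gene). It holds none of the 5 motifs searched, so no base is in capitals.
LGALS2 promoter: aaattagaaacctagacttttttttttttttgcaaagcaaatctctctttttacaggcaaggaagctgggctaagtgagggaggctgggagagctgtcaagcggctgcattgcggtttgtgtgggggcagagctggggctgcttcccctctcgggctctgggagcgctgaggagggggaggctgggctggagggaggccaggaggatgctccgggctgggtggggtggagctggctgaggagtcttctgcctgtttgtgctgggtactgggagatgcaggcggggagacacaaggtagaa
The motifs, each searched on both strands, were TGANTCA for AP-1, CCGGAA for the ETS core, the NF-κB consensus, GTTAAT as the shorter HNF1 motif, and TATAAA. They occur in 7.71%, 17.2%, 5.91%, 6.88% and 11.5% of the 35116 RefSeq promoters of that length. RefSeq promoters matched 8 of the 10 genes, 9 promoters in all, and LGALS1 and ANXA13 were not matched. No motif was in the promoters of LGALS2, LGALS3, LGALS4 or ANXA3, which says only that these letters are not in this window.

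The LGALS2 signal was 5.13, 4.96 and 4.98 with vehicle in WiDr and 6.45, 6.64 and 6.69 with AZ628. It was 7.84, 7.99 and 7.86 with control shRNA and 3.89, 3.84 and 3.91 with IKKα shRNA. In HT29 it was 6.62, 6.56 and 6.62 with vehicle and 9.5, 9.39 and 9.51 with AZ628. No groups overlapped apart from HT29 with vehicle and WiDr with AZ628, so the level with IKKα shRNA was below both controls although the controls differed by 2.88. The 3 knockdown arrays lay under 4.72, the mean signal that bounds the dimmest 25% of genes. Differences are compressed there, so those of the knockdown arrays may be too small. As a description, the IKKα shRNA arrays were 16.2-fold lower than control shRNA (-4.02) and 2.21-fold lower than vehicle (-1.14). LGALS2 was chosen because these controls differ, so neither size is independent of the choice.

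AZ628, which the choice of genes did not use although the WiDr vehicle arrays are shared, raised LGALS2 2.97-fold in WiDr (1.57, SE 0.069, limma adjusted p = 3.17e-12) and 7.30-fold in HT29 (2.87, SE 0.069, adjusted p = 5.56e-15). The rise was larger in HT29 by 1.30 (SE 0.098, adjusted p = 1.62e-07). HT29 was also above WiDr, by 1.58 with vehicle (adjusted p = 1.27e-11) and by 2.87 with AZ628 (adjusted p = 4.89e-15). The rise in WiDr, the difference between the rises and the difference between the lines with vehicle all use those shared arrays and are not independent of the choice. Galectin-2 belongs to the differentiated gut epithelium, so 10 genes of absorptive enterocytes were read beside it. Their mean per array rose from between 5.27 and 5.33 to between 6.01 and 6.07 with AZ628 in WiDr, and from between 6.02 and 6.08 to between 6.85 and 6.86 in HT29. It was 5.51 to 5.55 with control shRNA and 5.14 to 5.24 with IKKα shRNA. The median difference of the list was 0.21 with AZ628 in WiDr and 0.27 in HT29, and 0.018 with IKKα shRNA against control shRNA, where 2 rose, 3 fell and 5 did not pass and the largest differences were those of FABP1 (-2.05) and SLC5A1 (-1.91). The part of enterocyte genes in the LGALS2 differences was not tested.

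LGALS3 encodes galectin-3, the galectin with a single lectin domain and a collagen-like tail that forms oligomers. In WiDr it was 11.94, 11.93 and 11.88 with vehicle and 12.62, 12.61 and 12.63 with AZ628, a rise of 0.70 (SE 0.057, limma adjusted p = 1.01e-08). HT29 gave 11.48, 11.55 and 11.42 with vehicle and 12.08, 11.96 and 12.15 with AZ628, a rise of 0.58 (adjusted p = 1.31e-07). The answer for IKKα depended on the control. The IKKα shRNA arrays, at 12.20, 12.32 and 12.28, overlapped those with control shRNA, at 12.30, 12.26 and 12.27 (difference -0.0075, 95% interval -0.13 to 0.11, adjusted p = 0.939). Against vehicle the same arrays were 0.35 higher (SE 0.057, adjusted p = 9.6e-05), and control shRNA was itself 0.36 above vehicle.

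LGALS4 encodes galectin-4, a galectin with a pair of lectin domains joined by a linker, which binds sulfated glycolipids at the enterocyte brush border. Its signal was 10.97, 10.88 and 11.06 with IKKα shRNA against 12.72, 12.67 and 12.64 with control shRNA and 12.40, 12.49 and 12.51 with vehicle. All 3 knockdown arrays lay more than 1 log2 unit below every other array. The fall was 3.27-fold against control shRNA (-1.71, SE 0.064, limma adjusted p = 1.19e-12) and 2.82-fold against vehicle (-1.50, SE 0.064, adjusted p = 9.36e-12). AZ628 gave 12.30, 12.21 and 12.17 in WiDr, a difference of -0.24 from vehicle (SE 0.064, adjusted p = 0.00449). In HT29 the arrays with AZ628, at 12.75, 12.74 and 12.80, overlapped those with vehicle, at 12.64, 12.84 and 12.81 (difference 0.0039, 95% interval -0.13 to 0.14, adjusted p = 0.971). The AZ628 effects in the lines differed by 0.25 (adjusted p = 0.115), so a difference in response between the lines did not pass.

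Among the annexins, ANXA1, ANXA2 and ANXA10 fell with AZ628 in both lines and ANXA3 rose. After IKKα knockdown ANXA1 and ANXA3 rose and ANXA4 and ANXA10 fell against both WiDr controls. ANXA1 encodes annexin A1, a mediator that dampens inflammation through formyl peptide receptors and is a substrate of the EGF receptor. Its promoter is shown beside those of ANXA2 and ANXA10 because these are the members whose matches include the TATA motif, with matched letters in capitals, 5′ to 3′ along the gene, in RefSeq's GRCh38.p14: ANXA1 chr9:73151615-73151914 (plus strand), ANXA2 chr15:60397937-60398236 (minus strand) and ANXA10 chr4:168092287-168092586 (plus strand).
ANXA1 promoter: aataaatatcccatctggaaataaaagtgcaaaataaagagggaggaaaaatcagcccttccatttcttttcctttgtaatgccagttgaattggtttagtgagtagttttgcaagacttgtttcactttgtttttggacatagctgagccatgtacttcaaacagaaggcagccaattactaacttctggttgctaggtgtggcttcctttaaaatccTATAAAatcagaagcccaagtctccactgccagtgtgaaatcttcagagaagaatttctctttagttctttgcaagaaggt
ANXA2 promoter: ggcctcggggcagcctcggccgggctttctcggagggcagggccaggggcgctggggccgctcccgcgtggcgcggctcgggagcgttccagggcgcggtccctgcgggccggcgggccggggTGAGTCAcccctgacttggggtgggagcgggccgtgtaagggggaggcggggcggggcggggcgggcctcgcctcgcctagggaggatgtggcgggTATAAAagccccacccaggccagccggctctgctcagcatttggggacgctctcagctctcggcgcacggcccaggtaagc
ANXA10 promoter: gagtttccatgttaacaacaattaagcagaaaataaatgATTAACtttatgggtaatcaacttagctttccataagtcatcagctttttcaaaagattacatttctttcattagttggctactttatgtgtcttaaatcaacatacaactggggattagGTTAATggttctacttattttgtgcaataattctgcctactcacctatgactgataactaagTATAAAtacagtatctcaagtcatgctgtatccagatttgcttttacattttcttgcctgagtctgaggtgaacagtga
The TATA match ends at -26 in ANXA1 and ANXA2 and at -24 in ANXA10, counted from the start site. ANXA2 also holds the AP-1 motif from -127 to -121, read on both strands because the motif is a palindrome, and ANXA10 holds the shorter HNF1 motif at -211 to -206 and at -91 to -86. The base composition of these promoters differed, with 37.7% G and C in ANXA1, 76% in ANXA2 and 32.7% in ANXA10 against a median of 58.7% over all promoters. A match describes the sequence and not a bound factor.

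ANXA1 moved in opposite directions with the treatments. Its signal in WiDr was 12.45, 12.46 and 12.51 with vehicle and 11.81, 11.70 and 11.69 with AZ628. It was 12.11, 12.05 and 12.13 with control shRNA and 13.35, 13.38 and 13.50 with IKKα shRNA. In HT29 it was 11.99, 12.15 and 12.02 with vehicle and 11.50, 11.33 and 11.48 with AZ628. The AZ628 arrays were the lowest of each line and the knockdown arrays were the highest of the 18. ANXA1 fell by 0.74 with AZ628 in WiDr (SE 0.063, limma adjusted p = 1.94e-08) and by 0.62 in HT29 (SE 0.063, adjusted p = 2.28e-07). With IKKα shRNA it was 2.48-fold above control shRNA (1.31, SE 0.063, adjusted p = 3.32e-11) and 1.91-fold above vehicle (0.93, adjusted p = 3.45e-09). Of its 5 probe sets, 4 had differences of -0.93 to -0.74 with AZ628 in WiDr, and the dimmest, with a mean of 3.77 over the 18 arrays, had 0.064 (SE 0.17). All 5 were higher with IKKα shRNA than with control shRNA, by 0.76 to 1.48.

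ANXA2 encodes annexin A2, which pairs with S100A10 at the plasma membrane and helps assemble plasmin on the cell surface. Its main probe set ran from 13.87 to 14.14 over the 18 arrays. With AZ628 all 6 arrays lay between 13.87 and 13.88, below every other array. The signal fell by 0.17 in WiDr (SE 0.044, limma adjusted p = 0.00302) and fell by 0.23 in HT29 (SE 0.044, adjusted p = 0.000235). The 6 probe sets of ANXA2 fell by unequal amounts: the pair with means of 8.50 and 9.82 fell by 0.61 and 0.68 in WiDr and by 0.76 and 0.84 in HT29, whereas the 4 with means of 13.38 to 14.00 fell by 0.17 to 0.27 and by 0.23 to 0.35. IKKα shRNA differed from control shRNA by -0.069 (95% interval -0.16 to 0.02, adjusted p = 0.251) and from vehicle by -0.044 (-0.14 to 0.05, adjusted p = 0.473).

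ANXA3 encodes annexin A3, an annexin also abundant in neutrophils. In WiDr its signal was 11.26, 11.03 and 11.04 with vehicle and 12.02, 11.96 and 11.89 with AZ628. Control shRNA gave 11.29, 11.14 and 11.14, and IKKα shRNA gave 12.36, 12.23 and 12.28. HT29 gave 10.50, 10.52 and 10.40 with vehicle and 11.02, 10.86 and 11.09 with AZ628. As for LGALS1, the WiDr controls overlapped and both treatments lay above them. ANXA3 rose 1.80-fold with AZ628 in WiDr (0.85, SE 0.075, limma adjusted p = 3.39e-08) and 1.43-fold in HT29 (0.52, SE 0.075, adjusted p = 1.75e-05). IKKα shRNA arrays were 2.14-fold above control shRNA (1.10, adjusted p = 3.14e-09) and 2.27-fold above vehicle (1.18, adjusted p = 1.64e-09). The other probe set of ANXA3 gave 0.76 and 0.95 for AZ628 in WiDr and for IKKα shRNA against control shRNA. For AZ628 in HT29 it gave 0.44, and with it in place of the main probe set that call was lost (adjusted p = 0.0583).

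ANXA4 encodes annexin A4, an annexin of secretory epithelium. RefSeq gives it a pair of promoters, and the second is shown because it holds the NF-κB consensus at -114 to -105, overlapped by the ETS core on the other strand at -108 to -103 (capitals mark both together, GRCh38.p14, chr2:69741884-69742183, plus strand). IKKα is a kinase of the NF-κB pathway, and the match describes the sequence only.
ANXA4 promoter 2: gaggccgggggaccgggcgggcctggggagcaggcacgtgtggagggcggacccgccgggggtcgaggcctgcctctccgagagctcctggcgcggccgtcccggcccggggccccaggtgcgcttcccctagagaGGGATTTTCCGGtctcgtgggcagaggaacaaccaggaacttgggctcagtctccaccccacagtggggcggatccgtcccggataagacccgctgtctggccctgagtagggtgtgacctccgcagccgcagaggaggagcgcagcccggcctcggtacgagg
The first ANXA4 promoter holds the ETS core at 2 to 7.

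The ANXA4 signal was 13.15, 13.21 and 13.14 with control shRNA, above the other 15 arrays, which ran from 12.44 to 12.80. With IKKα shRNA it was 12.53, 12.52 and 12.44, and with vehicle in WiDr 12.69, 12.80 and 12.75. With knockdown it fell by 0.67 against control shRNA (SE 0.066, limma adjusted p = 2.56e-07) and by 0.25 against vehicle (SE 0.066, adjusted p = 0.00581), and the size of the fall thus depended on the control. The AZ628 difference in WiDr, -0.17 (SE 0.066), was just under the threshold at an adjusted p of 0.05 after rounding, and 9 of 13 alternative settings put it above. Leaving out AZ628 replicate 1 gave -0.13 (adjusted p = 0.189) and leaving out its replicate 3 gave -0.17 (adjusted p = 0.0949). Leaving out vehicle replicate 2 gave -0.14 (adjusted p = 0.158) and its replicate 3 gave -0.17 (adjusted p = 0.0988). Of the 9 probe sets of ANXA4, 3 had a difference above 0 there and the range was -0.24 to 0.036. In HT29 the difference was 0.048 (95% interval -0.09 to 0.19, adjusted p = 0.622).

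ANXA10 encodes annexin A10, an annexin of gastric epithelium. In WiDr its signal was 12.85, 12.77 and 12.87 with vehicle and 12.12, 12.14 and 12.18 with AZ628. It was 13.14, 13.12 and 13.13 with vehicle in HT29 and 12.11, 12.04 and 12.06 with AZ628. HT29 started above WiDr, by 0.30 (SE 0.048, limma adjusted p = 9.66e-05), and with AZ628 the lines differed by -0.074 (95% interval -0.18 to 0.03, adjusted p = 0.286). ANXA10 fell by 0.68 in WiDr (adjusted p = 1.67e-09) and fell by 1.06, 2.08-fold, in HT29 (SE 0.048, adjusted p = 7.75e-12), and the fall in HT29 was larger (adjusted p = 0.00162). The IKKα shRNA arrays, at 12.50, 12.43 and 12.55, lay between vehicle and AZ628, with differences of -0.33 from control shRNA (adjusted p = 2.65e-05) and -0.34 from vehicle (adjusted p = 2.62e-05). Control shRNA, at 12.84, 12.82 and 12.82, overlapped vehicle.

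**Figure D2:**
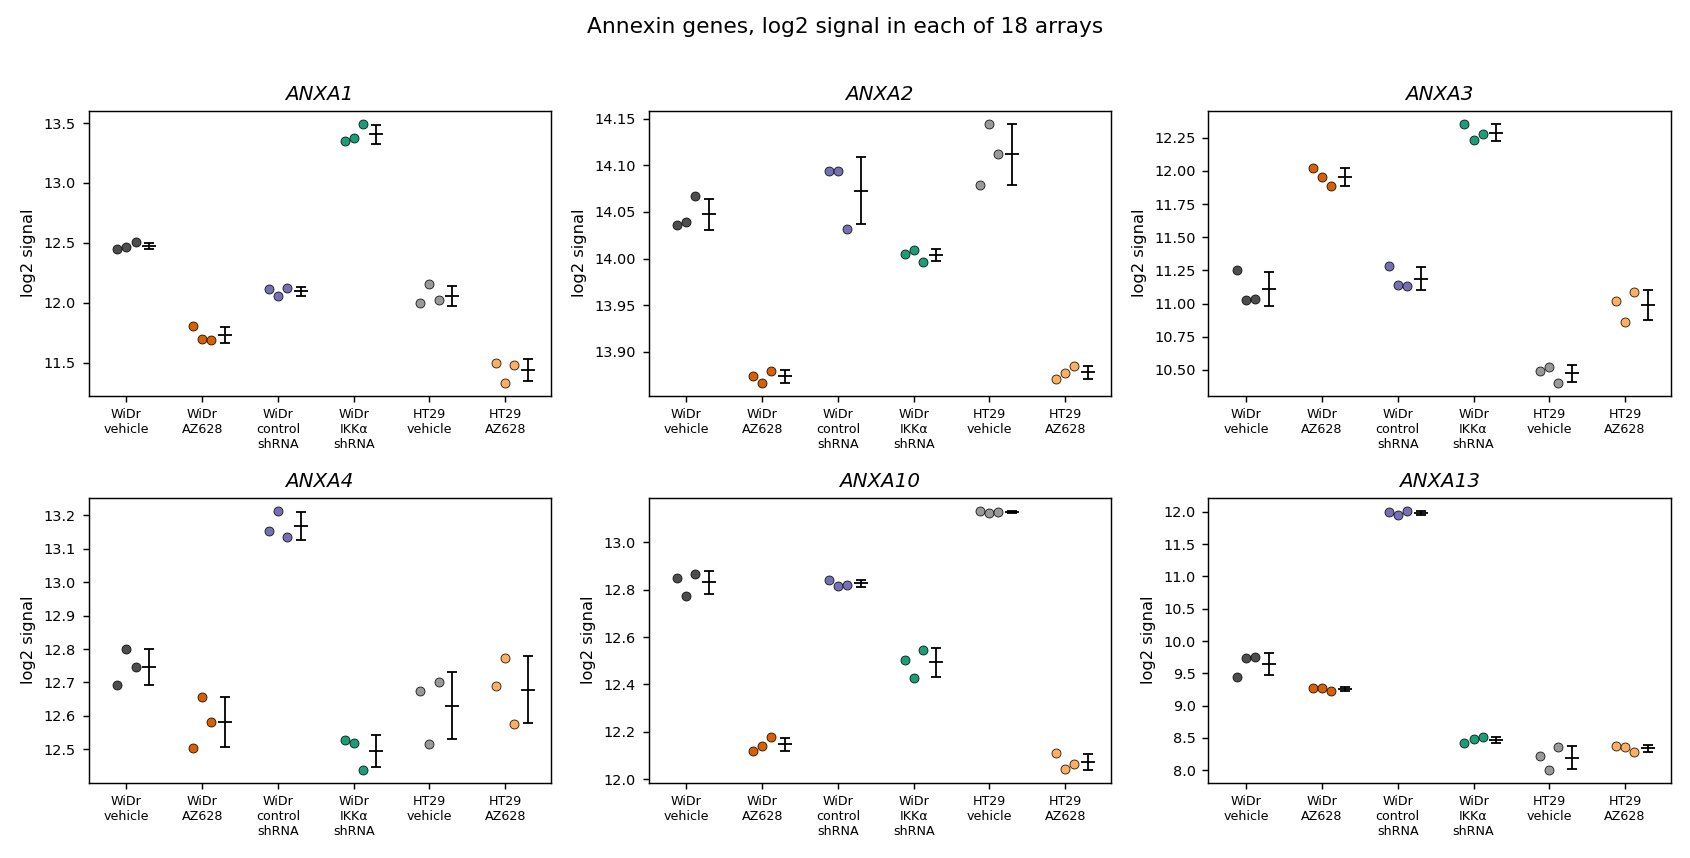
Log2 signal of the 6 annexin genes on each of 18 arrays by group, with points for arrays and bars for the mean ± SD (n = 3); each panel has its own axis, which does not start at 0. ANXA1 is highest and ANXA13 near its lowest with IKKα shRNA, ANXA10 and ANXA2 are lowest with AZ628 in both lines, and ANXA4 and ANXA13 are highest with control shRNA.

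ANXA13 encodes annexin A13, which carries a lipid anchor and takes part in delivery of vesicles to the apical membrane. The control shRNA arrays stood apart, at 12, 11.95 and 12.02, where vehicle in WiDr gave 9.44, 9.74 and 9.75. With IKKα shRNA the signal was 8.42, 8.48 and 8.51, below both. As a description, it differed by -3.52 from control shRNA (11.5-fold lower) and by -1.18 from vehicle (2.26-fold lower), and control shRNA was 2.34 above vehicle (5.07-fold). Both probe sets of ANXA13 gave these differences closely, -3.52 and -3.51 for the first and 2.34 and 2.35 for the last.

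ANXA13 was lower in HT29 than in WiDr, with differences of -0.91 with AZ628 (SE 0.085, limma adjusted p = 1.64e-07) and -1.45 with vehicle (SE 0.085, adjusted p = 6.43e-10). Its signal in HT29 was 8.23, 8.01 and 8.35 with vehicle and 8.38, 8.36 and 8.28 with AZ628, which overlapped (difference 0.15, 95% interval -0.03 to 0.33, adjusted p = 0.194). AZ628 arrays in WiDr, at 9.28, 9.27 and 9.22, differed from vehicle by -0.39 (SE 0.085, adjusted p = 0.000925). The AZ628 effects in the lines differed by 0.54 (SE 0.121, adjusted p = 0.00794). The -1.45, the -0.39 and the 0.54 rest on the WiDr vehicle arrays that the choice of genes used, so they are not independent of it, whereas the -0.91 and the AZ628 difference within HT29 do not use those arrays. Within WiDr both ANXA13 and LGALS2 were highest with control shRNA and lowest with IKKα shRNA, and with AZ628 ANXA13 fell and LGALS2 rose.

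Counted together, 10 of 10 members passed for AZ628 in WiDr, 4 higher and 6 lower, in a comparison where 44.6% of all genes passed (23.4% higher and 21.1% lower). In HT29 7 of 10 passed, 4 higher and 3 lower, where 43.6% of all genes did (22.5% higher and 21% lower), and LGALS4, ANXA4 and ANXA13 did not. Of the 8 members tested for IKKα shRNA against control shRNA, LGALS1, ANXA1 and ANXA3 were higher and LGALS4, ANXA4 and ANXA10 lower, where 34.9% of all genes passed (15.9% higher and 19% lower). Against vehicle LGALS3 joined the higher ones, so 7 of 8 passed, where 36.3% of all genes did (16.4% higher and 19.8% lower). The median size of the difference, whatever its sign, was 0.69 and 0.55 over the 10 members for AZ628 in WiDr and HT29, where it was 0.178 and 0.176 over all genes. Over the 8 members tested for IKKα shRNA it was 0.89 against control shRNA and 0.64 against vehicle, where it was 0.152 and 0.162 over all genes. AZ628 in WiDr, IKKα shRNA against vehicle and the difference between the controls share the WiDr vehicle arrays, and both IKKα comparisons share the knockdown arrays, so agreement among them is not independent. LGALS2 and ANXA13, chosen by the WiDr vehicle arrays, count among the 10 of 10 and in the 0.69 for AZ628 in WiDr. That count and that median are therefore not independent of the choice and are not weighed against all genes. The 10 of 10 also includes ANXA4, whose call held in 4 of 13 alternative settings. Members were chosen with results known, and these counts describe them.

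**Figure D3:**
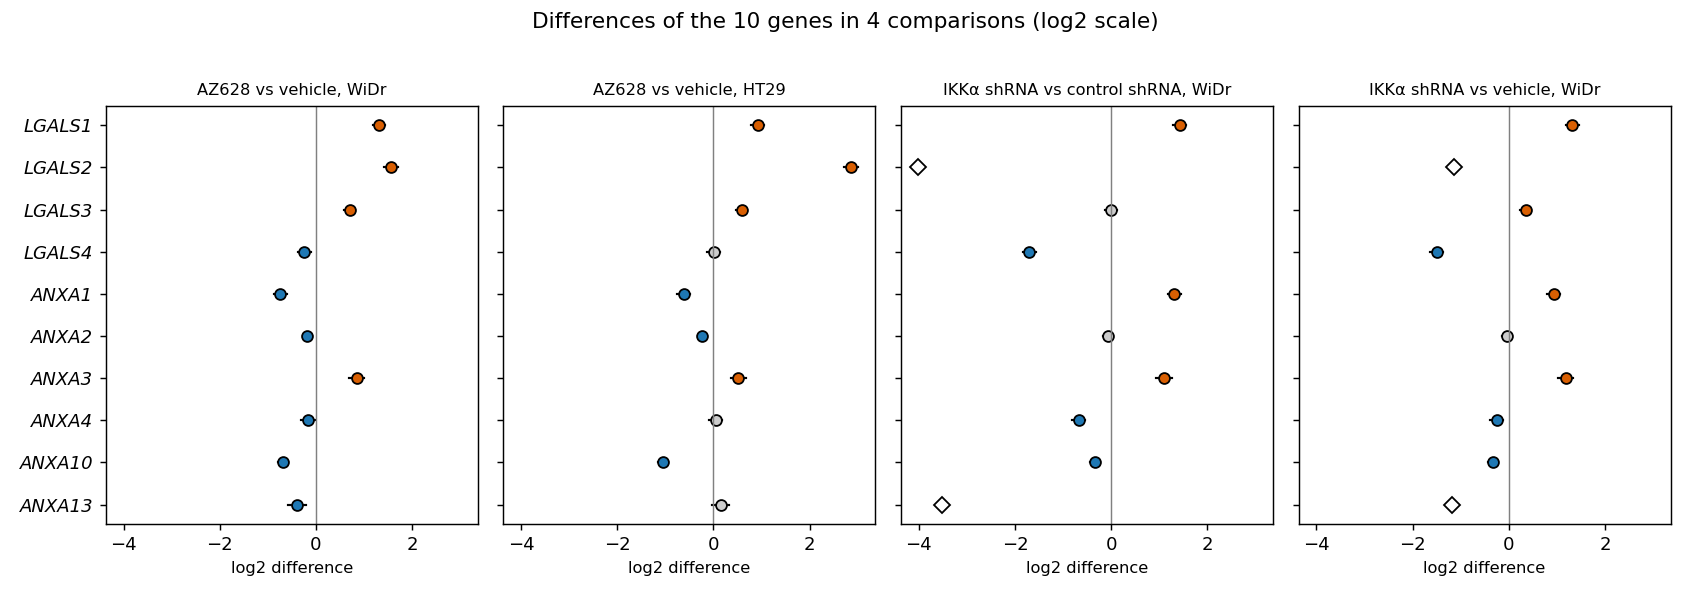
Log2 differences of the 10 genes in 4 comparisons, with 95% intervals as horizontal lines. Orange and blue circles passed higher and lower, grey circles did not pass, and open diamonds without intervals are descriptions of LGALS2 and ANXA13; LGALS1 and ANXA3 lie to the right of 0 in every panel, ANXA10 lies to the left, and ANXA1 lies left with AZ628 and right with IKKα shRNA.

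The controls of WiDr differed from each other for several members, described here without a test. Control shRNA was above vehicle by 2.88 for LGALS2, 2.34 for ANXA13, 0.42 for ANXA4, 0.36 for LGALS3 and 0.21 for LGALS4, and for ANXA1 the difference was -0.38. For these 6 genes the arrays of the controls did not overlap, and over all genes the arrays did not overlap in 40.3%. LGALS1, ANXA2, ANXA3 and ANXA10 differed by at most 0.10 and overlapped. The comparison passed for 22.2% of all genes, which fell from 4023 genes to 2309 without vehicle replicate 2 and to 2614 without vehicle replicate 3.

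With vehicle, HT29 differed from WiDr in 8 of 10 members, 3 higher (LGALS2, LGALS4 and ANXA10) and 5 lower (LGALS1, LGALS3, ANXA1, ANXA3 and ANXA13), where 32.2% of all genes passed (16.9% higher and 15.3% lower). With AZ628, 7 of 10 passed, 2 higher and 5 lower, where 34.4% of all genes did (17.2% in each direction), and ANXA10 no longer did. The sizes with AZ628 were 2.87 for LGALS2, 0.54 for LGALS4, -0.80 for LGALS1, -0.55 for LGALS3, -0.30 for ANXA1, -0.97 for ANXA3 and -0.91 for ANXA13. The AZ628 effect itself differed between the lines in 4 of 10 members, where it did in 9.19% of all genes (4.06% higher and 5.13% lower). It was higher in HT29 for LGALS2 and ANXA13 and lower for LGALS1 (-0.40, SE 0.087, limma adjusted p = 0.00676) and for ANXA10 (-0.37, SE 0.069). ANXA3 was near the threshold (-0.33, SE 0.107, adjusted p = 0.0629) and passed without WiDr vehicle replicate 1 (-0.41, adjusted p = 0.0189) or without HT29 AZ628 replicate 3 (-0.38, adjusted p = 0.0439). LGALS2 and ANXA13 count among the 4 of 10 and among the 8 of 10 with vehicle. They were chosen by the WiDr vehicle arrays, which both comparisons use. Both counts are therefore not independent of the choice and are not weighed against the share of all genes.

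**Figure D4:**
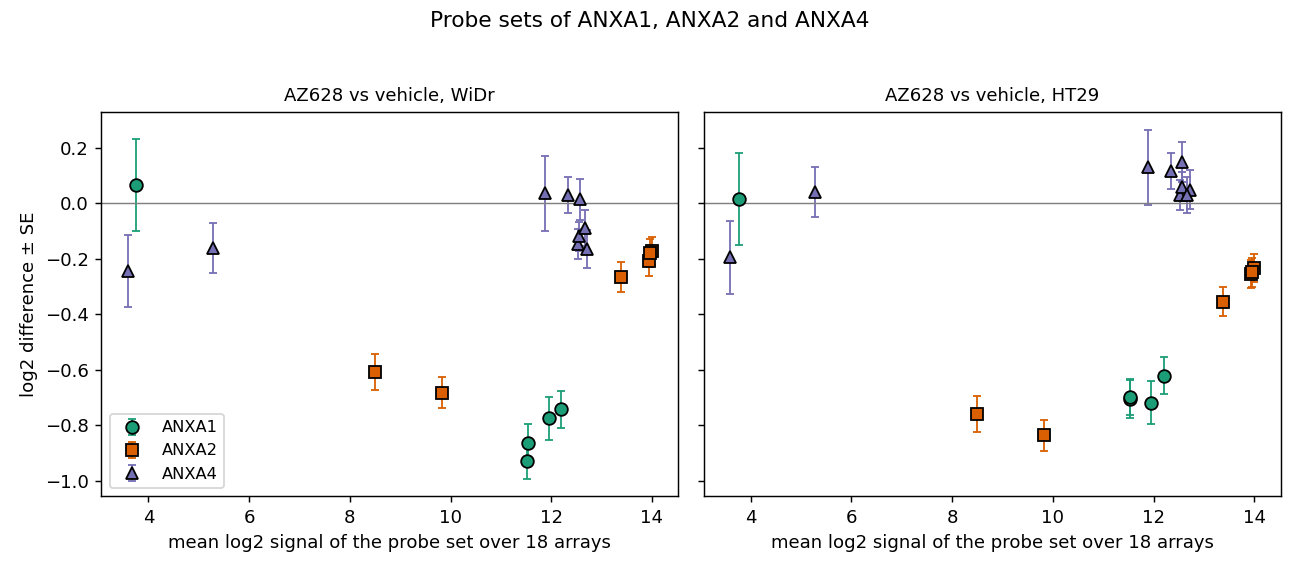
Difference between AZ628 and vehicle (log2, ± SE) for each probe set of ANXA1, ANXA2 and ANXA4, against the mean log2 signal of the probe set over 18 arrays, for WiDr and HT29. The dimmer pair of ANXA2 probe sets, at 8.50 and 9.82, has larger falls than the 4 brighter ones, and the dim ANXA1 probe set at 3.77 lies near 0.

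Ordered by level, several neighbouring groups could not be separated. LGALS1 was as high with AZ628 as with IKKα shRNA in WiDr, where the arrays overlapped. For LGALS4, HT29 with vehicle overlapped both HT29 with AZ628 and WiDr with control shRNA, which did not overlap each other, and below these came vehicle, AZ628 and IKKα shRNA in WiDr, none overlapping. ANXA1 overlapped between control shRNA and HT29 with vehicle. For ANXA3, WiDr with vehicle overlapped both control shRNA and HT29 with AZ628, which did not overlap each other. For ANXA2, control shRNA overlapped both HT29 with vehicle and WiDr with vehicle, which did not overlap each other, and the AZ628 groups overlapped. For ANXA4 each group below control shRNA overlapped the next, but WiDr with vehicle did not overlap WiDr with AZ628 or with IKKα shRNA. ANXA13 overlapped between both HT29 groups.

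The genes whose pattern was most like that of each member were ranked by Pearson r over the 18 arrays, as a description; the arrays form 6 groups and share their normalization, so r follows mainly 6 group means. For LGALS2 these were TFF3 (0.971), a trefoil peptide of goblet cells, BCL2L14 (0.958), IFT88 (0.956), a protein of cilia, ADH6 (0.946), an alcohol dehydrogenase, and QPRT (0.945), an enzyme of NAD synthesis. TFF3 was at 8.10 (vehicle), 8.71 (AZ628), 8.89 (control shRNA) and 7.15 (IKKα shRNA) in WiDr, and at 8.55 and 9.91 in HT29. For ANXA13 they were TNNT1 (0.959), a troponin, CTBP1 (0.958), a transcriptional corepressor, RNF157 (0.956), CBLC (0.939), a ubiquitin ligase, and OASL (0.938), an interferon-induced gene. OASL was at 7.65 with vehicle, 9.12 with control shRNA and 7.67 with IKKα shRNA.

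**Figure D5:**
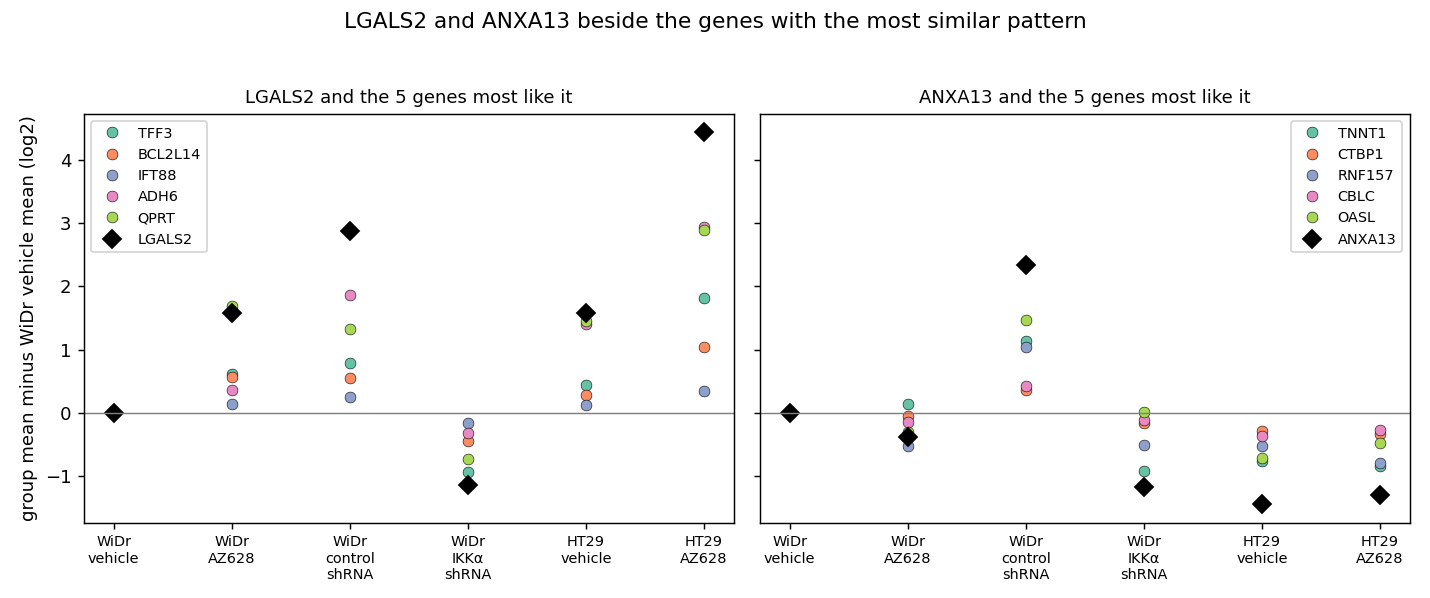
Group means of LGALS2 and ANXA13 (black diamonds) and of the 5 genes most like each, as differences from the mean of WiDr with vehicle on the log2 scale. Control shRNA is above 0 for all 12 genes, and LGALS2 has the widest range, up to HT29 with AZ628. LGALS2 and ANXA13 were chosen because the controls differ, and the others for likeness to them. The place of control shRNA thus follows largely from the choice.

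The 3 genes most like each other member were as follows. LGALS1 went with TMEM106B (0.985), a lysosomal membrane protein, CPEB2 (0.979) and JAKMIP2 (0.976). LGALS3 went with BLCAP (0.973), BRI3 (0.969) and SULT2B1 (0.963), a sulfotransferase of sterols. LGALS4 went with FGFR3 (0.984), a growth factor receptor, IARS2 (0.98) and TOP2B (0.98), a topoisomerase, and FGFR3 was at 7.09 with IKKα shRNA and 9.17 with control shRNA. ANXA1 went with EREG (0.987), an EGF receptor ligand, RDH10 (0.987) and WDR33 (0.978). EREG fell with AZ628 in WiDr from 10.51 to 9.11 and was at 11.92 with IKKα shRNA. ANXA2 went with INPP1 (0.983), CBFB (0.977) and TRIAP1 (0.974), and ANXA10 with the cell cycle gene E2F2 (0.989), STOML2 (0.979) and TK1 (0.978), a thymidine kinase. ANXA3 went with ZNF226 (0.98), MYOF (0.974), which encodes the membrane repair protein myoferlin, and ANKRD29 (0.974). ANXA4 had lower values, with TGFB1I1 (0.889), ANXA13 (0.888) and IFITM3 (0.887). Among the members themselves r was highest for ANXA2 with ANXA10 (0.962) and LGALS1 with ANXA3 (0.901), and it was -0.879 for LGALS2 with ANXA1 and 0.171 for LGALS2 with ANXA13.

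Of 12 other galectin genes 7 were measured. With AZ628 44.6% of all genes passed in WiDr and 43.6% in HT29, and of these 7 only 1 passed in each line. This was LGALSL, a galectin-like gene, which rose from 7.85 to 9.0 in WiDr (1.16, SE 0.061, limma adjusted p = 3.02e-11) and from 7.95 to 8.96 in HT29 (1.0, adjusted p = 2.48e-10). With IKKα shRNA against control shRNA LGALS8, a tandem-repeat galectin, fell by 0.48 (adjusted p = 1.61e-05) and LGALS13 rose by 0.22 (adjusted p = 0.0357) at a signal among the dimmest 25% of genes. The other 5 did not pass there, where 34.9% of all genes did. LGALS9 was between 7.48 and 7.71 in all 6 groups.

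Of 7 other annexin genes 6 were measured. ANXA9 and ANXA11 rose and ANXA5 fell with AZ628 in both lines, and the other 3 did not pass. Of all genes 44.6% passed in WiDr and 43.6% in HT29. With IKKα shRNA against control shRNA 2 rose, 1 fell and 3 did not pass, where 34.9% of all genes passed. ANXA9 rose from 7.23 to 9.74 in WiDr (2.51, SE 0.064, limma adjusted p = 4.57e-15) and from 8.06 to 9.97 in HT29 (1.91, adjusted p = 1.88e-13). It fell by 1.15 with IKKα shRNA against control shRNA (adjusted p = 2.28e-10) and by 0.75 against vehicle (adjusted p = 6.9e-08). ANXA5, the annexin used as a probe of exposed phosphatidylserine, fell from 12.90 to 12.11 in WiDr (-0.79, adjusted p = 6.92e-10) and from 12.83 to 11.98 in HT29 (-0.85, adjusted p = 3.17e-10). With IKKα shRNA against control shRNA it differed by 0.13 (adjusted p = 0.0689).

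Among 11 annexin partners and receptors, 4 rose, 2 fell and 5 did not pass with IKKα shRNA against control shRNA, where 34.9% of all genes passed, with a list median of 0.09 where that of all genes was 0.02. With AZ628 1 rose, 2 fell and 8 did not pass in WiDr (44.6% of all genes passed), and 2 rose, 3 fell and 6 did not pass in HT29 (43.6%). PLA2G4A, the cytosolic phospholipase A2 that annexins can inhibit, rose by 0.93 with IKKα shRNA against control shRNA (SE 0.08, limma adjusted p = 2.71e-08). With AZ628 PLA2G4A fell by 0.96 in WiDr (adjusted p = 6.92e-09) and 1.21 in HT29 (adjusted p = 4.36e-10). S100A11, a partner of ANXA1, rose by 0.40 with IKKα shRNA (adjusted p = 4.21e-05) and fell with AZ628 by 0.41 and 0.51. PLA2G4A and S100A11 thus had the same signs as ANXA1 in these comparisons. S100A10, the partner of ANXA2, fell by 0.55 with IKKα shRNA against control shRNA (adjusted p = 5.05e-07). ANXA2R, named as a receptor for annexin A2, fell by 0.89 in the same comparison (adjusted p = 9.77e-08). The formyl peptide receptors FPR1, FPR2 and FPR3, through which secreted annexin A1 acts, were among the dimmest 25% of genes.

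Of 13 galectin ligands and glycan enzymes, 7 rose and 1 fell with AZ628 in WiDr, where 44.6% of all genes passed. In HT29 6 rose and 2 fell, where 43.6% of all genes passed. With IKKα shRNA against control shRNA 7 rose and 3 fell, where 34.9% of all genes passed. MGAT4A, which adds a branch to N-glycans, rose by 2.10 in WiDr (SE 0.09, limma adjusted p = 2.22e-12) and 1.84 in HT29 (adjusted p = 1.58e-11). ST6GAL1, a sialyltransferase whose product blocks binding of galectin-1, rose by 0.88 (adjusted p = 2.06e-09) and 0.59 (adjusted p = 4.33e-07). CD44, a glycoprotein that galectins bind, fell by 2.08 (adjusted p = 1.31e-12) and 0.98 (adjusted p = 3.39e-08). With IKKα shRNA against control shRNA MGAT4A fell by 0.87 (adjusted p = 5.01e-07), CD44 fell by 0.53 and ST6GAL1 rose by 0.33. MGAT4A was at 3.87 with vehicle in WiDr, 3.46 with vehicle in HT29 and 3.41 with IKKα shRNA. These lie under the 4.72 that bounds the dimmest 25% of genes, so its differences may be too small. The list medians were 0.20, 0.13 and 0.26, where those of all genes were between -0.00054 and 0.024.

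Of 8 membrane repair genes 7 were measured, and 4 rose and 2 fell with AZ628 in WiDr, where 44.6% of all genes passed. In HT29 2 rose, 1 fell and 4 did not pass, where 43.6% of all genes did. With IKKα shRNA against control shRNA 2 rose, 1 fell and 4 did not pass, where 34.9% of all genes did. The list medians were 0.20, 0.03 and -0.05. MYOF rose by 1.23 with AZ628 in WiDr (SE 0.06, limma adjusted p = 2.53e-11), by 0.84 in HT29 (adjusted p = 4.83e-09) and by 1.53 with IKKα shRNA against control shRNA (adjusted p = 4.32e-12), the same signs as LGALS1 and ANXA3. EHD2, a membrane-shaping ATPase, fell by 0.54 and 0.94 with AZ628.

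Of 10 genes of absorptive enterocytes, 5 rose and 1 fell with AZ628 in WiDr, where 44.6% of all genes passed, and 6 rose and 1 fell in HT29, where 43.6% did. By their mean over the 18 arrays 4 of the 10 were among the dimmest 25% of genes. FABP1, a fatty acid binding protein, rose from 4.71 to 7.52 in WiDr and from 8.72 to 10.76 in HT29. SI, the sucrase-isomaltase of the brush border, rose by 2.99 (SE 0.13, limma adjusted p = 4.04e-12) and 5.14 (adjusted p = 1.13e-14). With vehicle SI was at 2.87 in WiDr and 2.79 in HT29. These lie under the 4.72 that bounds the dimmest 25% of genes, so both rises may be too small. FABP1 in WiDr, at 4.71 with vehicle, started just under it as well. With IKKα shRNA 2 rose, 3 fell and 5 did not pass against control shRNA, where 34.9% of all genes passed, among them FABP1, which fell by 2.05 (adjusted p = 4.73e-11) to 3.94, also under that bound, and SLC5A1, a sodium-glucose transporter, which fell by 1.91 (adjusted p = 5.84e-11). SLC5A1 was at 5.72 with vehicle and 7.29 with control shRNA, so it was higher with control shRNA, as LGALS2 and ANXA13 were. SI was at 2.87 and 2.84. With AZ628 SLC5A1 moved opposite to LGALS2, from 5.72 to 4.98 in WiDr and from 7.75 to 6.47 in HT29. Of 5 measured blood cell markers 3 were among the dimmest 25% of genes and their mean lay between 4.74 and 5.10 on all arrays. The mean of 5 endothelial markers lay between 4.92 and 5.65, and the highest arrays were those with IKKα shRNA. TEK had the largest difference there, at 6.63 with IKKα shRNA, 5.44 with control shRNA and 4.69 with vehicle in WiDr. Against either control 1 of the 5 was higher with IKKα shRNA and 4 did not pass. Of all genes 34.9% passed against control shRNA and 36.3% against vehicle.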

How the data were processed

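The 18 arrays were grouped by their titles, and the inhibited HT29 arrays are spelled HT28 in the design text. The deposited table holds a log2 signal for each probe set. According to the submitters' processing notes, the authors used RMA, limma and R 3.0.2. RMA forces a shared distribution on the arrays and shrinks differences at low signal, which hides a shift common to most genes and makes folds of dim genes too small. The labels' protocols start from 100 ng of total RNA in a whole-transcript labelling assay. Probe set names of this kind are usual on arrays read from the 3′ end, and the discrepancy was not resolved.

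Of 49395 probe sets, 44994 had 1 symbol, 1832 several and 2569 none in the platform table, and for each of 18132 genes the probe set of highest mean signal (all 18 arrays) was kept. A model of 6 groups was fitted to all arrays with limma 3.58.1 in R 4.3.3 (12 residual degrees of freedom, prior 4.49), with Benjamini-Hochberg adjustment over all genes in each contrast; tests are two-sided. Precision is limited by 3 arrays per group.

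The members, the other lists and the alternatives were chosen with earlier results of these data known. Named genes were all 10 members, up to 4 passing and 2 other genes of each list per comparison described, and the 5 genes (LGALS2 and ANXA13) or 3 genes (others) with the highest Pearson r. The alternatives were averaging all probe sets of each gene, no probe sets marked as binding several transcripts, no dim genes, repeated quantile normalization, the compared groups alone, an intensity trend in the prior, the replicate number as a block, and each array left out in turn. Promoters are those of RefSeq for GRCh38.p14. LGALS7, LGALS7B, LGALS9B, LGALS9C, LGALS16, ANXA8L1 and PDCD6IP were not analysed here.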

Additional observations from a re-analysis of the deposited data

Results flagged for a closer look

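The AZ628 effect differed between the lines for 4 members, by limma's test of the difference itself. LGALS2 rose more in HT29, by 1.30 (SE 0.098, limma adjusted p = 1.62e-07), and LGALS1 rose less there (difference -0.40, SE 0.087, adjusted p = 0.00676). ANXA10 fell further in HT29 (difference -0.37, SE 0.069, adjusted p = 0.00162). For ANXA13 the difference was 0.54 (SE 0.121, adjusted p = 0.00794), with a fall in WiDr and a change in HT29 that did not pass. These differences use the WiDr vehicle arrays, by which LGALS2 and ANXA13 were chosen. Over all genes 9.19% passed this test.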

How the results depend on the processing

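The count of members that passed stayed within 1.5 times of the main count in all 97 recomputed counts. Of 1100 recomputed member differences 1079 kept their side of the threshold or, where untested, stayed within the spread between replicates. Of the rest 10 lost a call, 8 gained one and 3 untested values moved. No call reversed direction. The 1079 include changes of sign among differences that did not pass or were untested. LGALS3 for IKKα shRNA against control shRNA, for example, ran from -0.033 to 0.026. The call of ANXA4 with AZ628 in WiDr was also lost with the mean of its probe sets (-0.09, limma adjusted p = 0.192), with repeated quantile normalization (-0.10, adjusted p = 0.376), without probe sets marked as binding several transcripts (adjusted p = 0.0606) and with the compared groups alone (adjusted p = 0.083). With the mean of its probe sets ANXA4 passed between the lines with vehicle (-0.17, adjusted p = 0.0236), and its difference between the WiDr controls became 0.29. The main probe sets of ANXA1, ANXA2 and ANXA3 are among those marked as binding several transcripts. Without such probe sets the differences of ANXA2 with AZ628 were -0.61 in WiDr and -0.76 in HT29. The main probe set of ANXA2 gave -0.17 and -0.23. The difference of ANXA3 between the lines in its AZ628 effect passed without dim genes (adjusted p = 0.0424), with repeated quantile normalization (adjusted p = 0.0387) and with an intensity trend (adjusted p = 0.0201), and that of LGALS4 with the trend (adjusted p = 0.0363). After repeated quantile normalization LGALS2 differed by -3.94 between IKKα shRNA and control shRNA, and LGALS1 differed by -0.19 between the controls. The causes were not tested.

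Replicate numbers recur across groups, but of 45 same-numbered pairs 8 had a correlation of deviations over 0.1 (range -0.293 to 0.358), so the numbers were not taken as pairing. With the replicate number as a block 9, 7, 6, 7, 8, 7 and 5 members passed, in the order AZ628 in WiDr, AZ628 in HT29, IKKα shRNA against control shRNA and against vehicle, HT29 against WiDr with vehicle and with AZ628, and the difference of the AZ628 effects. The block lost ANXA4 with AZ628 in WiDr (adjusted p = 0.0597) and gained ANXA3 in the difference of effects (adjusted p = 0.0382).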
